A study of Arabidopsis thaliana with 12 samples.

Results

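The sid2 mutant of Arabidopsis carries a defect in SID2 (ICS1), the isochorismate synthase that makes most of the salicylic acid (SA) a plant produces under attack. The comparison described here is of sid2 seedlings given L-glutamate (L-Glu) with sid2 seedlings given urea, and asks which responses to L-Glu ran without that enzyme. Its members were the 6 libraries whose titles name sid2, of 12 in the series, 3 with 20 mM L-Glu and 3 with 20 mM urea, all taken after 48 h from 14-day-old seedlings in liquid culture under continuous light. The other 6 libraries came from Col-0, the wild type, under the same 2 treatments, and are used only where the effect in sid2 is set against the effect in Col-0. No library was untreated, so every rise or fall below is set against urea, whose own effect the design cannot separate. The sid2 allele is not given in the sources used here, and the genotype field of the labels reads Col-0 for all 12 samples, so the genotype rests on the titles. The labels do not say if libraries within a group are separate cultures, so p-values rest on the spread among them, which may be technical.

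SA is a phenolic hormone of plant immunity. In the isochorismate route SID2 turns chorismate into isochorismate in the plastid, EDS5 exports it, and PBS3 joins it to glutamate, after which the conjugate breaks down to SA. A parallel route starts from phenylalanine with phenylalanine ammonia-lyase (PAL). SA is bound by the NPR proteins, which act with TGA factors on defence genes. Extracellular glutamate is also a wound and immunity signal in Arabidopsis, read in part by glutamate receptor-like channels that carry calcium.

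The values were the authors' normalized signal for 14897 genes, a gene-level read abundance with no 0 in any library. The signal summed to between 2779666 and 3051489 in the sid2 libraries with urea and to between 4080154 and 4354796 in those with L-Glu, while the medians ran from 76.2 to 77.1 in all 6. The read depth is unknown, so no interval that needs it is given. Log2 values correlated across genes at 0.963 to 0.970 among the urea libraries of sid2, at 0.973 to 0.978 among its L-Glu libraries, and at 0.446 to 0.471 between the treatments. In sid2 chloroplast and mitochondrial genes held 1.31% to 1.43% of the signal with urea and 0.406% to 0.506% with L-Glu. The lowest mean of a gene over all libraries was 6.93, so some genes with little signal under urea may be listed only through their L-Glu values. The counts of list members below cover the measured members alone and describe them. In whole seedlings, fewer cells of a type and less RNA per cell cannot be told apart.

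L-Glu changed most of the measured transcriptome of sid2. At an adjusted p under 0.05 (limma, all 12 libraries in the model), 9592 genes were called, which is 64.4% of those tested. Of these 4761 rose (32.0%) and 4831 fell (32.4%). The change was at least 2-fold for 3452 genes that rose and for 3226 that fell, and it reached 4 on the log2 scale for 498 and 170 genes. The median change of all genes was -0.02. With each library scaled to the same total the median moved to -0.52 and the split to 3215 higher (21.6%) and 7094 lower (47.6%), and counts under that scaling stand beside several lists below. The sid2 groups did not overlap for 10717 of all genes, which is 71.9%. No gene called here was called with the other sign under any alternative. Leaving out 1 library at a time left 8812 to 9947 calls, and 7889 genes were called in each of those 12 fits.

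AT2G18193, which encodes an ATPase of the AAA type, had a signal of 41.9, 8.96 and 30.8 with urea and of 53490, 38090 and 49033 with L-Glu, the highest of any gene in the L-Glu libraries. It rose by 10.76 ± 0.36 (SE) on the log2 scale. UGT74E2, a glucosyltransferase for an auxin precursor, went from 8.41, 12.4 and 4.53 to 13868, 12669 and 14152. RBCS2B, a small subunit of Rubisco, went from 12211, 20894 and 17338 to 37.3, 36.1 and 262, and fell by 7.77 ± 0.63. RBCS3B, its neighbour and near-identical copy, went from 25775, 55508 and 36149 to 170, 170 and 598. How the authors' counting treated reads that match both copies is not stated. The groups did not overlap for any of these 4 genes, which the rule for naming them required and which held for 71.9% of all genes. L-Glu library 3 was the highest of its group for both RBCS genes.

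The 250 bases before the annotated start of these 4 genes are shown because they carry the largest changes in either direction. They were read from the RefSeq TAIR10.1 genome, 5′ to 3′ on the strand of the gene. Capitals mark matches on either strand to the W-box core (TTGAC, bound by WRKY factors), the I-box (GATAAG) and the G-box (CACGTG), both known from light-regulated promoters, and the mitochondrial dysfunction motif, which is bound by the NAC factors of the mitochondrial retrograde response. The promoter of AT2G18193 (chr2:7919346-7919595, minus strand) held 3 W-box cores, 1 G-box and 1 mitochondrial dysfunction motif, the last between 90 and 78 bases before the start. That of UGT74E2 (chr1:1704839-1705088, minus strand) held 1 W-box core. That of RBCS2B (chr5:15382072-15382321, minus strand) held 3 I-boxes, 1 G-box and 2 W-box cores. That of RBCS3B (chr5:15378643-15378892, minus strand) held none of the marked letters. A match describes the letters and is not a measured binding site.
AT2G18193: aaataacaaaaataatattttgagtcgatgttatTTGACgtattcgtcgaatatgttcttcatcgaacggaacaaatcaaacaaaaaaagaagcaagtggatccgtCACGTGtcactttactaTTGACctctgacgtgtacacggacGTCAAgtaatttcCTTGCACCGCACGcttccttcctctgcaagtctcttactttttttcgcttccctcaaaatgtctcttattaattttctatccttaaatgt
UGT74E2: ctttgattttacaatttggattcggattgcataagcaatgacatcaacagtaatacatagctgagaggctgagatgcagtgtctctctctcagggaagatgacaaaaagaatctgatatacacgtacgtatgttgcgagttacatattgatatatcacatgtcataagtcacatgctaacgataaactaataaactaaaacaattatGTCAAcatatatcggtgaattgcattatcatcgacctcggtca
RBCS2B: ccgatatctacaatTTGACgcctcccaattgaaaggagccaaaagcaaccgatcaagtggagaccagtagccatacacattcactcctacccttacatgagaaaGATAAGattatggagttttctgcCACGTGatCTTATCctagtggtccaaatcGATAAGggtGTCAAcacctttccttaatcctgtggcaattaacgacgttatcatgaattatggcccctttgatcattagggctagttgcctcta
RBCS3B: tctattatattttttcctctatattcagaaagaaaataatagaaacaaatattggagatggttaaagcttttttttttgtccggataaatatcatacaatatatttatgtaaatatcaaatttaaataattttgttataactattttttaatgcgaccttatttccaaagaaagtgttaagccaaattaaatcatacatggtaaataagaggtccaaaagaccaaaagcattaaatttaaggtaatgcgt

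The other genes with the largest rises fell into a few kinds. CYP81D8, a cytochrome P450 and stress marker, rose by 10.20, the AGC kinase OXI1, which acts downstream of oxidative bursts, by 10.04, and BCS1, an AAA-type ATPase of mitochondria, by 9.66. SOT12, a sulfotransferase with SA among its substrates, rose by 9.34, the calcium pump ACA13 by 9.24, WRKY30 by 9.05, the glutamate decarboxylase GAD4 by 9.04 and the calcium sensor CML37 by 8.91. AT3G02840, AT1G13480, AT1G56060, AT2G04495 and AT5G13210, whose products the annotation describes only by a domain or as uncharacterized, rose by 8.88 to 9.61. Among the largest falls after the RBCS genes were GLU1, the ferredoxin-dependent glutamate synthase of leaves (fell by 6.97), the Calvin cycle aldolase FBA2 (fell by 6.87), Rubisco activase RCA (fell by 6.83), the glycine decarboxylase subunits GDCH (fell by 6.70) and GLDP1 (fell by 6.42), phosphoribulokinase PRK (fell by 6.23) and PSBO2 of photosystem II (fell by 6.20). The abundant transcripts changed over. RCA held 1.37% to 1.67% of the signal with urea, the largest mean share of any gene, while with L-Glu the largest share, 0.925% to 1.23%, was that of AT2G18193.

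**Figure D1:**
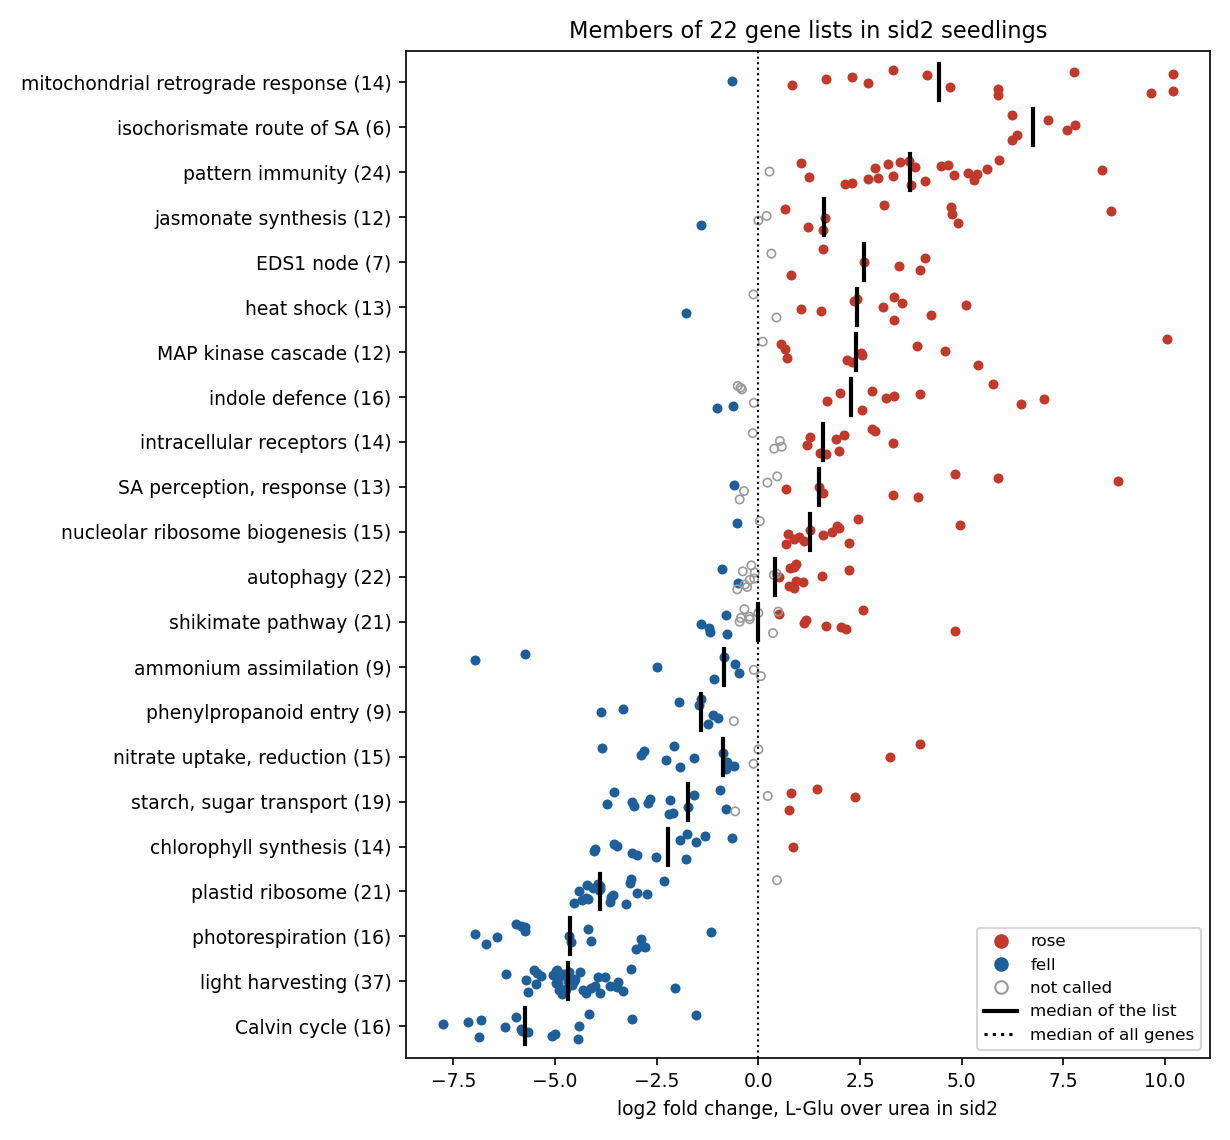
Log2 fold change of L-Glu over urea in sid2 (x axis) for every measured member of 22 gene lists (rows, number of members in parentheses), with filled points for called genes, open points for genes not called, a bar at the median of the list and a dotted line at the median of all genes. The lists run from a median of 6.74 for the isochorismate route to -5.74 for the Calvin cycle, and all 69 members of the Calvin cycle, light harvesting and photorespiration rows lie left of the line.

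The genes of the isochorismate route rose in sid2 itself. SID2 had 43.3, 29.8 and 65.4 units with urea and 7434, 5421 and 7340 with L-Glu, a rise of 7.13 ± 0.24 on the log2 scale (adjusted p = 7.68e-15). Its transcript therefore was present in the mutant, and without the allele its level does not check the label. PR1, the usual marker of SA responses, is not among the genes analysed here. PBS3, which joins isochorismate to glutamate, went from 48.7, 31.6 and 55.8 to 9373, 8256 and 9968. EDS5, the plastid exporter, rose by 6.36, and the activators of SID2 transcription SARD1, CBP60G and WRKY28 by 7.79, 6.25 and 6.24. All 6 measured members of 8 listed rose (beside 32.0% of all genes), with a median of 6.74 beside 6.27 in Col-0. None of the sid2 groups overlapped, which also holds for 71.9% of all genes. The difference between the effects in sid2 and Col-0 was 0.60 for SID2, with a 95% interval of -0.10 to 1.29, and -0.02 for PBS3, with an interval of -0.64 to 0.59. For SARD1 it was 1.36 (0.58 to 2.13), with an adjusted p of 0.0608, which the replicate block took to 0.0478.

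The EDS1 node relays signals of intracellular immune receptors and stands upstream of SID2. EDS1 had 198, 179 and 224 units with urea and 3051, 2823 and 3794 with L-Glu, and rose by 3.98. Its partners SAG101 and PAD4 rose by 4.10 and 2.59, and NDR1, a membrane protein of another receptor class, by 3.47. UGT76B1, which glucosylates N-hydroxypipecolic acid and SA, rose by 1.59. Of 7 measured members 6 rose (85.7%, beside 32.0% of all genes) and 1, SARD4, was not called (0.32, adjusted p = 0.387). ALD1 and FMO1, the enzymes of N-hydroxypipecolic acid synthesis, were not analysed here.

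Perception of SA was split. NPR1, the coactivator, had 123, 127 and 129 units with urea and 1956, 1921 and 1976 with L-Glu, and rose by 3.92 ± 0.17. The receptors NPR3 and NPR4, which repress SA responses, rose by 3.31 and 1.60. WRKY46, WRKY53 and WRKY70, SA-responsive regulators of the same WRKY group, rose by 8.84, 5.90 and 4.83. TGA3 and TGA2, partners of NPR1, rose by 1.50 and 0.67, and TGA5 fell by 0.60. The call of TGA2 ended without sid2 urea library 1 (adjusted p = 0.0923) or sid2 L-Glu library 3 (0.0604), and that of TGA5 without sid2 urea library 1 or 2 or sid2 L-Glu library 1 or 2 (0.0622 to 0.083). TGA6 (0.22), TGA1 (-0.35), NIMIN-3 (-0.46) and WRKY54 (0.46) were not called. The 8 of 13 measured members that rose are 61.5%, beside 32.0% of all genes. The list held 22 genes. NIMIN1, NIMIN2, WRKY38, WRKY62, PR1, BGL2, PR5, GRX480 and LURP1 were not measured, so these SA response genes were not surveyed. With each library scaled to the same total 3 of the 13 fell in place of 1.

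WRKY54 stood apart. It is a close relative of WRKY70 and acts with it as a regulator of SA levels and of senescence. In sid2 its signal was 5.68, 6.49 and 8.13 with urea and 12.4, 10.7 and 8.84 with L-Glu, a change of 0.46 ± 0.24 (adjusted p = 0.103, and 0.0491 with a pseudocount of 0.1 in place of 1). In Col-0 it went from 52.4, 51.3 and 42.8 to 657, 568 and 953, a rise of 3.77. The sid2 values with L-Glu lay below all 3 Col-0 values with urea. The effects differed by -3.31, with a 95% interval of -4.03 to -2.59 and an adjusted p of 0.000184, and the call held without each of the 12 libraries in turn. For WRKY70 the effects differed the other way, by 1.36 (0.58 to 2.14), with an adjusted p of 0.0624 that the replicate block took to 0.0463. Its sid2 values with urea were 60.9, 74.4 and 60.7, against 377, 333 and 186 in Col-0.

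Among genes that modify SA, DMR6, an SA hydroxylase, rose by 1.84 and UGT71C3 by 0.92 (not called without library 2 of either sid2 group, adjusted p = 0.0827 and 0.104), while the SA glucosyltransferase UGT74F2 fell by 1.09 and the methylesterase MES9 by 1.15. GH3.5 (0.15) and UGT89A2 (0.01) were not called.

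The phenylpropanoid entry, which also feeds the parallel route to SA, fell in sid2. PAL1 had 424, 356 and 416 units with urea and 160, 135 and 135 with L-Glu, and fell by 1.45 ± 0.26 (adjusted p = 9.21e-05). PAL2 went from 471, 414 and 487 to 126, 115 and 109, and fell by 1.94 ± 0.22. PAL4, C4H (cinnamate hydroxylase) and 4CL1 (coumarate CoA ligase) fell by 1.42, 1.11 and 1.23. AIM1, a peroxisomal enzyme that shortens cinnamate towards benzoate, fell by 1.00, and the flavonoid enzymes FLS1 and CHS fell by 3.32 and 3.86. Of 9 measured members 8 fell (88.9%, beside 32.4% of all genes), and 4CL2 was not called (-0.60, adjusted p = 0.0526). The urea and L-Glu groups of sid2 did not overlap for any of these 9 genes, beside 71.9% of all genes.

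In Col-0 the same list had a median of -0.00, beside -1.42 in sid2, and 3 of 9 members fell there. The summed signal of the list was lower with L-Glu in both genotypes. In sid2 it was 0.106% to 0.120% of the library with urea and 0.0221% to 0.0260% with L-Glu. In Col-0 it was 0.0924% to 0.140% with urea and 0.0379% to 0.0707% with L-Glu. The difference was called for PAL2 (-1.62, 95% interval -2.28 to -0.96), 4CL1 (-1.39, -2.09 to -0.69) and FLS1 (-1.32, -1.96 to -0.69), with adjusted p of 0.0215, 0.0391 and 0.0344. It missed the threshold for PAL1 (-1.45, adjusted p = 0.051) and C4H (-1.14, adjusted p = 0.0573), which the replicate block took to 0.0413 and 0.0404. Over all genes the difference was called for 1.95%. All 9 differences were below 0, beside 7966 of 14897 over all genes. The Col-0 libraries were uneven: PAL1 had 248, 555 and 262 units with L-Glu there, and library 2 was the highest of its group for PAL1, PAL2, PAL4, C4H, 4CL1 and 4CL2. Without it the median difference of the list moved from -1.32 to -0.99, and the calls of PAL2, 4CL1 and FLS1 ended at adjusted p of 0.0508, 0.111 and 0.0625. They also ended without sid2 L-Glu library 2 (0.079, 0.133 and 0.114) and without sid2 urea library 1 or 3, FLS1 and 4CL1 further without Col-0 urea library 2 or sid2 L-Glu library 3, and 4CL1 further without Col-0 urea library 3 or sid2 urea library 2. The fall within sid2 kept its call without each library for PAL1, PAL2, PAL4, C4H, 4CL1, FLS1, CHS and AIM1.

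**Figure D2:**
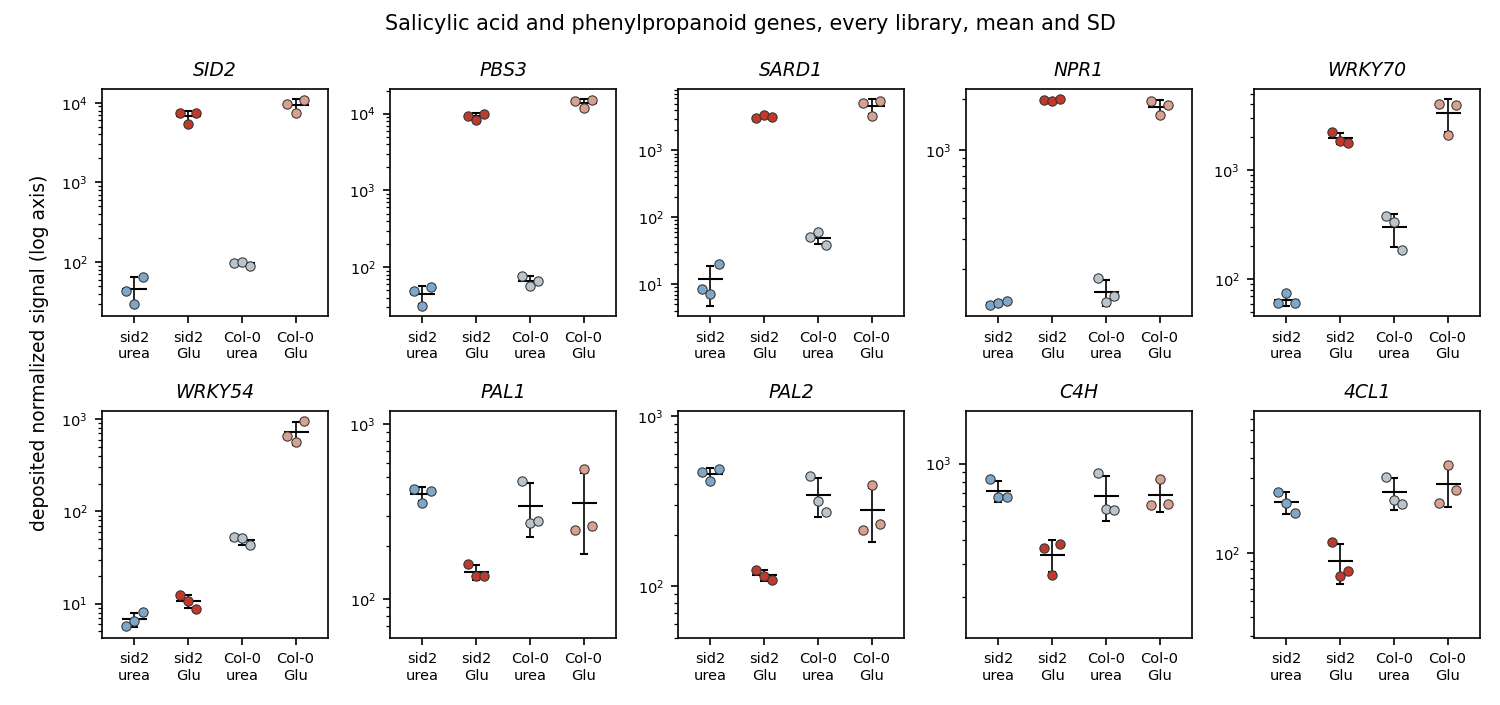
Deposited normalized signal (log axis) of 10 genes in each of the 12 libraries, with points for libraries and bars for the mean and SD of 3 libraries in sid2 and Col-0 with urea or L-Glu. SID2, PBS3, SARD1, NPR1 and WRKY70 are higher with L-Glu in both genotypes, WRKY54 lies between 5.68 and 12.4 in all sid2 libraries, and PAL1, PAL2, C4H and 4CL1 are lower with L-Glu in sid2 while the Col-0 groups overlap.

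Upstream of SA synthesis, the shikimate pathway makes chorismate and the aromatic amino acids. Of 21 measured genes 8 rose and 5 fell in sid2, or 7 rose and 10 fell with each library scaled to the same total, 38.1% and 23.8% beside 32.0% and 32.4% of all genes in the first case. The arogenate dehydratase ADT4, which makes phenylalanine, went from 42.1, 76.1 and 34.4 to 1532, 1846 and 1111, and rose by 4.83, and the tryptophan synthesis genes TSB1, ASA1 and ASB1 rose by 2.57, 2.02 and 1.67. ADT6, ADT3 and chorismate mutase CM1 fell by 1.22, 1.19 and 1.42, the call of ADT6 ending without sid2 urea library 2 (adjusted p = 0.0541).

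Genes of pattern-triggered immunity, in which surface receptors recognise microbial molecules and damage, rose almost throughout. Of 24 measured genes 23 rose (95.8%, beside 32.0% of all genes), with a median of 3.72 beside 3.86 in Col-0. The peroxidase PER4 went from 21.8, 15.9 and 11.7 to 6945, 6955 and 6569, and rose by 8.45. The co-receptor BAK1 had 224, 194 and 170 units with urea and 3134, 2492 and 2410 with L-Glu, and rose by 3.75. The flagellin receptor FLS2 rose by 2.93, the chitin receptors LYK5 and CERK1 by 4.80 and 4.10, the PEP receptor PEPR1 by 5.16, the oxidase RBOHD by 3.20 and the receptor kinase gene FRK1 by 1.25. PEPR2 was not called (0.27), and its sid2 groups overlapped. The summed signal of the list was 0.0653% to 0.0699% of the library with urea and 0.745% to 0.837% with L-Glu.

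In the MAP kinase cascade 11 of 12 genes rose (91.7%, beside 32.0% of all genes), or 8 with each library scaled to the same total. OXI1 went from 8.41, 4.88 and 12.9 to 13206, 11269 and 12835. MPK3 went from 263, 317 and 292 to 4701, 4137 and 4418, and rose by 3.91, while MPK6, with which it shares targets, stayed at 216, 244 and 187 against 245, 231 and 217 and was not called (0.11). The phosphatase AP2C1 rose by 5.40 and the MAP kinase kinases MKK9, MKK4 and MKK5 by 4.60, 2.54 and 2.51. Among intracellular receptors and their helpers 10 of 14 rose (71.4%), among them RPM1 (3.31), SNC1 (2.87), ZAR1 (2.79) and the helper NRG1.1 (1.99). SGT1B, the chaperone partner of these receptors, was not called (-0.14).

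All 10 measured calmodulin-like genes rose (beside 32.0% of all genes), by 1.04 to 8.91. CML37 went from 11.1, 8.93 and 10.5 to 7067, 5789 and 6938, and TCH3 (CML12) was among the 3 genes with the largest mean share of the L-Glu signal. Of 15 calcium-dependent kinases, pumps and cyclic nucleotide-gated channels 11 rose (73.3%), among them CNGC19 (4.39), CPK4 (3.49) and CPK28 (3.16). CNGC2 and CNGC12 fell by 1.64 and 2.87, and 4 of the 15 fell with each library scaled to the same total. Of 21 cysteine-rich receptor-like kinases 13 rose (61.9%, beside 32.0% of all genes), led by CRK36 (8.38), and 3 fell. Of the glutamate receptor-like channels 10 of 20 were measured, of which 3 rose, 2 fell and 5 were not called, a share of rises (30.0%) close to the 32.0% of all genes. GLR2.5 went from 11.2, 8.78 and 12.9 to 379, 426 and 410, and rose by 4.83, and GLR1.2 and GLR1.3 rose by 4.26 and 3.20. GLR3.6 and GLR3.4 fell by 1.12 and 1.59, and GLR3.3, the channel known from glutamate wound signalling, was not called (0.06), its groups overlapping.

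WRKY factors were the largest family counted. Of 45 measured 31 rose (68.9%, beside 32.0% of all genes) and 4 fell, with a median of 1.76, and 25 rose and 9 fell with each library scaled to the same total. WRKY33, a regulator of camalexin synthesis, went from 389, 596 and 362 to 24615, 21861 and 25628, and rose by 5.76. WRKY51, WRKY48, WRKY25 and WRKY40 rose by 7.13, 6.09, 5.79 and 5.17, and WRKY57, WRKY21 and WRKY3 fell by 1.25, 1.61 and 2.06. Of 43 NAC factors 27 rose (62.8%) and 10 fell (23.3%, beside 32.4% of all genes). Of 14 ERF factors 9 rose (64.3%) and 1, ERF72, fell, by 4.09, with 3 ERF factors lower when each library was scaled to the same total.

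LOX4, a lipoxygenase that begins jasmonate synthesis, went from 13.8, 18.8 and 14.1 to 8213, 7665 and 7277, and rose by 8.67. AOC3, OPCL1 and OPR3, later enzymes of that pathway, rose by 4.92, 4.73 and 3.09, AOC2 fell by 1.41, and 9 of 12 genes rose in all (75.0%, beside 32.0% of all genes). Of 19 genes of jasmonate signalling 15 rose (78.9%) and 2 fell, the rises including the JAZ repressors JAZ5 (6.69), JAZ10 (5.40) and JAZ1 (4.75) and the hormone-inactivating CYP94C1 (4.63). The receptor COI1 went from 196, 145 and 125 to 34.5, 46.8 and 46.8, and fell by 1.77. ACS6, an ACC synthase of the ethylene pathway that MAP kinases stabilise, rose by 6.83, and the ERF factors ERF2, ERF6 and ERF104 by 5.23, 4.98 and 4.20. Of 21 ethylene genes 13 rose (61.9%) and 5 fell, the falls including the signalling protein EIN2 (fell by 1.16), and 11 rose and 8 fell with each library scaled to the same total.

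Indole defence compounds derive from tryptophan. PAD3, the last enzyme of camalexin synthesis, had 8.24, 4.32 and 16.4 units with urea and 141, 119 and 101 with L-Glu, and rose by 3.33. FOX1, an oxidase of indole cyanogenic compounds, rose by 6.45, the methyltransferase IGMT2 by 7.03, MYB51 by 3.15 and CYP79B2 by 2.54. Of the 16 genes 10 rose (62.5%, beside 32.0% of all genes). CYP79B3 and CYP83B1 fell by 1.01 and 0.61, and 6 of the 16 fell with each library scaled to the same total. The genes of methionine-derived aliphatic glucosinolates went the other way, with 6 of 8 lower (75%, beside 32.4% of all genes), among them CYP83A1 (fell by 2.54) and the regulator MYB28 (fell by 2.42).

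Mitochondrial retrograde genes, which the NAC factors of the endoplasmic reticulum switch on when respiration is impaired, formed the list with the highest median after the isochorismate route. Of 14 measured genes 13 rose (92.9%, beside 32.0% of all genes), with a median of 4.44 beside 4.35 in Col-0. AOX1A, the alternative oxidase, went from 266, 259 and 288 to 17198, 15647 and 16283, and rose by 5.90. UPOX and the dicarboxylate carrier DIC2 rose by 7.75 and 5.90, the NADH dehydrogenases NDB2 and NDA2 by 2.30 and 1.67, and the regulators NAC013 and NAC017 by 4.71 and 0.83. NDA1 fell by 0.66, a call that ended without sid2 urea library 2 or 3 or sid2 L-Glu library 3 (adjusted p of 0.0503 to 0.067). The 14 genes together held 0.0547% to 0.0585% of the signal with urea and 1.99% to 2.08% with L-Glu.

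Detoxification and antioxidant genes were mixed. Of 17 tau class glutathione transferases 11 rose (64.7%, beside 32.0% of all genes) and 4 fell, or 7 and 6 with each library scaled to the same total. GSTU9 went from 43.3, 71.1 and 52.2 to 10323, 10985 and 9499. The zinc finger regulators ZAT12 and ZAT10 rose by 7.15 and 6.34. Of 19 antioxidant genes 6 rose (31.6%, close to the share of all genes) and 11 fell (57.9%, beside 32.4% of all genes). CAT2, the leaf peroxisomal catalase, went from 4740, 5110 and 4463 to 378, 407 and 419, and fell by 3.56, and FSD1, a superoxide dismutase of chloroplasts, fell by 3.25.

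Heat shock genes rose in sid2, less than in Col-0 for 4 of 13, beside a called difference for 1.95% of all genes. HSP101, a disaggregase, had 71.7, 62.2 and 72.6 units with urea and 547, 591 and 676 with L-Glu, and rose by 3.07 ± 0.32. Hsp70b went from 22.0, 17.4 and 28.5 to 252, 239 and 284, and rose by 3.34. HSP17.6A rose by 5.10, and HSP90.1 and HSP70 by 2.42 and 2.36. Of 13 genes 10 rose (76.9%, beside 32.0% of all genes), HSFA7A fell by 1.77, and HSFA1A (0.45) and MBF1C (-0.12) were not called. In Col-0 HSP101 went from 53.1, 54.9 and 27.4 to 1756, 3895 and 1175, and Hsp70b from 8.34, 16.1 and 10.3 to 572, 1435 and 666. The effects differed by -2.46 for Hsp70b (95% interval -3.32 to -1.60, adjusted p = 0.0115), by -2.35 for HSP101 (-3.30 to -1.41, 0.0184), by -1.86 for HSP90.1 (-2.73 to -0.99, 0.0322) and by -1.49 for HSP70 (-2.23 to -0.75, 0.0374). For HSP17.6A the difference of -2.38 had an adjusted p of 0.051, which the replicate block took to 0.0171. Col-0 L-Glu library 2 was the highest of its group for all 5, and without it the median difference of the list moved from -1.31 to -0.82. The calls of Hsp70b and HSP101 held without that library (adjusted p = 0.0206 and 0.0341) and those of HSP90.1 and HSP70 ended (0.0554 and 0.0771). Without sid2 L-Glu library 2 all 4 calls ended, at adjusted p of 0.055, 0.079, 0.109 and 0.113 in the order given. That of HSP101 also ended without sid2 urea library 3, and those of HSP90.1 and HSP70 without Col-0 urea library 2, sid2 L-Glu library 1 or any sid2 urea library, HSP70 further without sid2 L-Glu library 3.

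Photosynthesis genes fell throughout. Together the 37 light-harvesting and photosystem genes, 16 Calvin cycle genes and 16 photorespiration genes that were measured held 13.2%, 16.8% and 14.6% of the signal in the urea libraries of sid2 and 0.282%, 0.360% and 0.410% in its L-Glu libraries. All 69 fell, beside 32.4% of all genes. The medians were -4.67, -5.74 and -4.63 in the 3 lists, beside -4.74, -5.78 and -4.57 in Col-0. RCA went from 39449, 50803 and 38954 to 231, 314 and 712. RBCS1A, another small subunit gene of Rubisco, went from 32048, 46038 and 37057 to 1431, 1880 and 2080, and fell by 4.42. The smallest falls were those of the glycerate kinase GLYK (fell by 1.17), TIM (fell by 1.54) and the antenna gene LHCB2.1 (fell by 2.05). L-Glu library 3 was the highest of its group for 45 of the 69 genes, against 5193 of all 14897 genes. FNR2, a ferredoxin reductase, went from 2054, 2134 and 2318 to 198, 204 and 236 in sid2 and from 2045, 1585 and 1682 to 71.0, 39.1 and 56.0 in Col-0, a difference of 1.61 (95% interval 1.02 to 2.20, adjusted p = 0.0123), with the call ending without sid2 L-Glu library 2 (0.055).

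The photorespiratory cycle recovers carbon after Rubisco takes up oxygen and turns over glutamate in leaf peroxisomes and chloroplasts. GLU1 went from 5574, 4546 and 5001 to 30.8, 18.6 and 81.8, and GS2, the chloroplast glutamine synthetase with which it works, from 7084, 7714 and 7062 to 109, 127 and 170, a fall by 5.74. GGT1, the main glutamate:glyoxylate aminotransferase, went from 8520, 10666 and 9250 to 444, 538 and 674, and fell by 4.11. Its minor copy GGT2 went from 145, 177 and 180 to 16.1, 19.5 and 23.6, and fell by 2.88, beside 1.42 lost in Col-0 on the same scale, a difference of -1.46 (-2.18 to -0.74, adjusted p = 0.0374). That call ended without any of 8 libraries, namely all 6 of sid2 and library 2 of both Col-0 groups, with an adjusted p of up to 0.109.

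Genes of plastid upkeep followed. Of 21 plastid ribosomal proteins and sigma factors 20 fell (95.2%, beside 32.4% of all genes), with a median of -3.88. SIG5 was not called (0.46, adjusted p = 0.0929, which the replicate block took to 0.0247). Of 14 chlorophyll synthesis genes 13 fell (92.9%), CHLM going from 967, 1236 and 1103 to 56.5, 67.6 and 67.0, and GSA1 rose by 0.84. The greening factor GLK2 fell by 4.09. Genes of chlorophyll breakdown did not rise: NYC1, NYE1 (SGR1), PAO and PPH fell by 3.25, 2.58, 3.11 and 0.69. Among senescence markers WRKY6 and SAG21 rose by 4.10 and 2.39 and SEN1 fell by 3.80.

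The light regulators HY5 and HYH and their target ELIP1, a stress protein of thylakoids, differed between the genotypes. In sid2 HY5 went from 119, 152 and 144 to 256, 317 and 268, and rose by 1.00. ELIP1 went from 119, 139 and 99.5 to 333, 666 and 323, and rose by 1.79, and HYH rose by 0.63, a call that ended without sid2 urea library 1 or 2 or sid2 L-Glu library 2 or 3 (adjusted p of 0.0964 to 0.123). In Col-0 the 3 genes changed by -0.55, -0.34 and -0.87. The differences were 1.55 (95% interval 0.90 to 2.20), 2.13 (1.24 to 3.01) and 1.50 (0.74 to 2.26), with adjusted p of 0.023, 0.0217 and 0.0397. The calls of HY5 and ELIP1 ended without sid2 L-Glu library 2 (0.0892 and 0.0813), sid2 urea library 1 or 3, or Col-0 L-Glu library 2. That of HYH ended without any of 10 libraries, Col-0 urea library 1 and Col-0 L-Glu library 3 being the exceptions, at up to 0.128.

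Genes of nitrogen metabolism were mixed. Of 9 genes of ammonium assimilation 7 fell (77.8%), and of 7 GABA genes 2 rose and 4 fell (57.1%). Of 13 asparagine and aspartate genes 4 rose (30.8%) and 5 fell (38.5%), and of 12 proline and arginine genes 2 rose and 6 fell (50%). Of 17 amino acid transporters 6 rose (35.3%) and 5 fell (29.4%). Over all genes 32.0% rose and 32.4% fell, close to the shares of the transporters and of the asparagine and aspartate genes. With each library scaled to the same total 2 of the asparagine and aspartate genes rose. The falls in ammonium assimilation included cytosolic GLN1;2 (fell by 2.49) and GDH1 (fell by 1.09), beside GLU1 and GS2 above. GAD4, which turns glutamate into GABA, went from 11.1, 8.93 and 9.31 to 7670, 7104 and 6160. The root enzyme GAD1 rose by 1.75, while GAD2 went from 935, 850 and 906 to 90.5, 95.6 and 118, and fell by 3.11, as did the GABA transaminase POP2 (fell by 1.62) and the transporter GAT1 (fell by 1.95). Asparagine synthetase ASN1 rose by 1.14 and ASN2 fell by 2.25, and the proline dehydrogenase PRODH2 rose by 1.61 while PRODH1 fell by 0.99. Among amino acid transporters LHT1, a high-affinity importer that takes up glutamate, went from 81.1, 110 and 100 to 1631, 1622 and 1329, and rose by 3.93. AAT1, PROT2 and LHT2 rose by 3.72, 3.65 and 1.38, and AAP2, AAP4 and AAP1 fell by 3.32, 2.91 and 2.66.

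Of 15 nitrate genes 11 fell (73.3%, beside 32.4% of all genes) and 2 rose, or 13 and 2 with each library scaled to the same total (beside 47.6% of all genes lower). The nitrate transceptor NRT1.1 went from 935, 1046 and 771 to 125, 154 and 107, and fell by 2.80. The nitrate reductases NIA1 and NIA2 fell by 2.26 and 1.58. Nitrite reductase NIR1 fell by 2.89, and the xylem loader NRT1.5 went from 2577, 2175 and 2192 to 167, 114 and 202 and fell by 3.85. WR3, a partner of the high-affinity nitrate transporters, rose by 3.97. In Col-0 NIR1 and NRT1.5 fell by 1.73 and 2.27, and the differences of -1.16 (-1.76 to -0.57, adjusted p = 0.0406) and -1.58 (-2.19 to -0.97, 0.0168) were called. That of NRT1.5 ended without sid2 L-Glu library 2 (0.0786), and that of NIR1 without any of 10 libraries, Col-0 urea library 1 and Col-0 L-Glu library 1 being the exceptions, at up to 0.135. For NIA2 the effects differed by 1.37, with an adjusted p of 0.0655 that the replicate block took to 0.0299. The ammonium transporter AMT2 rose by 4.38. The urea transporter DUR3 (-0.58, adjusted p = 0.0781) and urease URE (-0.14) were not called, and the urease accessory gene UREF rose by 3.83 from a signal under 17 with urea.

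Of 19 starch and sugar genes 13 fell (68.4%, beside 32.4% of all genes) and 4 rose, or 14 and 2 with each library scaled to the same total. The falls included the plastid phosphoglucomutase PGM (fell by 3.74), the sugar exporter SWEET11 (fell by 3.56) and the starch-phosphorylating GWD1 (fell by 3.06), and the hexose importer STP13 and the cell wall invertase cwINV1 rose by 2.38 and 1.44. Of 13 cell wall growth genes 9 fell (69.2%) and 2 rose, XTH4 falling by 3.24, and the touch-inducible XTH22 rose by 4.56. Of 16 auxin genes 8 fell (50.0%) and 5 rose (31.2%), the falls including the efflux carriers PIN7, PIN3 and PIN4 (fell by 2.66, 2.21 and 1.58). The auxin-conjugating GH3.3 rose by 5.21. The clock genes PRR9, PRR5, ELF4 and LUX rose by 4.25, 3.18, 2.53 and 2.21 under the continuous light used, and ELF3 fell by 1.13. Of 22 autophagy genes 10 rose (45.5%, beside 32.0% of all genes) and 2 fell, but 3 higher and 10 lower with each library scaled to the same total.

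The list built around nucleolar ribosome biogenesis had 15 measured genes. It also held TRM82, TCP14 and the kinases S6K2 and TOR, which are not ribosome assembly factors. Of the 15 genes 13 rose in sid2 (86.7%, beside 32.0% of all genes), with a median of 1.27. In Col-0 5 rose and 2 fell, with a median of 0.02. Their summed signal was higher with L-Glu in both genotypes, at 0.0871% to 0.110% of the library with urea and 0.270% to 0.276% with L-Glu in sid2, and at 0.104% to 0.118% and 0.192% to 0.250% in Col-0. No test of the difference over the list was made. FIB2, a fibrillarin that methylates ribosomal RNA, went from 89.1, 96.0 and 99.1 to 189, 259 and 149 in sid2 and from 125, 140 and 101 to 51.7, 16.6 and 66.9 in Col-0. TRM82, named for a yeast subunit of a tRNA methyltransferase, went from 15.8, 11.1 and 11.4 to 65.7, 85.2 and 106 in sid2 and from 40.4, 24.2 and 22.3 to 30.1, 20.5 and 24.0 in Col-0. Nucleolin NUC1 rose by 1.81, and the small nucleolar RNA-protein subunits NOP56 and FIB1 by 1.60 and 0.88. The S6 kinase S6K2 rose by 4.96 and TCP14 fell by 0.53 (not called without library 1 or 3 of either sid2 group, adjusted p of 0.0672 to 0.132), and the kinase TOR was not called (0.04). With each library scaled to the same total 9 of the 15 rose. The rise of FIB2 lost its call without sid2 L-Glu library 2 (adjusted p = 0.074).

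The difference was called for 5 of the 15, all higher in sid2: TRM82 at 2.61 (95% interval 1.78 to 3.43, adjusted p = 0.00685), FIB2 at 2.55 (1.56 to 3.54, 0.0168), NUC1 at 1.25 (0.66 to 1.84, 0.0328), NOP56 at 1.22 (0.59 to 1.85, 0.043) and FIB1 at 1.07 (0.51 to 1.62, 0.0438). Over all genes the difference was called for 1.95%. Of all 15 differences 14 were above 0, beside 6931 of 14897 over all genes. The call of TRM82 held without each library in turn. Without sid2 L-Glu library 2 those of FIB2, NUC1, NOP56 and FIB1 ended, at 0.079, 0.109, 0.129 and 0.134. The calls of NUC1, NOP56 and FIB1 also ended without any other sid2 library or without Col-0 urea library 2 or Col-0 L-Glu library 2, and that of FIB1 further without library 3 of either Col-0 group. Col-0 L-Glu library 2 had the lowest value of its group for FIB2, NUC1, NOP56 and FIB1, and without it the median difference moved from 1.07 to 0.64.

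Over the whole table the effect of L-Glu was called as different between the genotypes for 291 genes, 1.95% of those tested, with 191 higher and 100 lower in sid2 and 288 of them by at least 2-fold. With the replicate block the count was 498, which held 287 of the 291. Most of the calls were lost without some single library. Leaving out 1 at a time left 41 calls without sid2 urea library 3, 9 without sid2 L-Glu library 2, 43 without Col-0 L-Glu library 2, 65 without sid2 urea library 1, 98 without sid2 L-Glu library 3, 107 without sid2 L-Glu library 1, 108 without Col-0 urea library 2 and 179 without sid2 urea library 2, and 242 to 367 without any of the other 4. Only 9 genes were called in each of the 12 fits. Each fit had 1 library fewer, so a lost call alone does not tell a changed effect from lost precision. Without sid2 L-Glu library 2 the difference went from -2.35 to -2.34 for HSP101 and from -2.30 to -2.31 for ASFT, though both calls ended. It moved further for ELIP1, from 2.13 to 1.79, and for NRT1.5, from -1.58 to -1.35. For 5559 genes the 95% interval of the difference lay within 2-fold either way, and these included 2145 of the 6678 genes that changed at least 2-fold in sid2. For the rest a difference of 2-fold is not excluded by the interval, whose median width was 1.48 on the log2 scale.

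**Figure D3:**
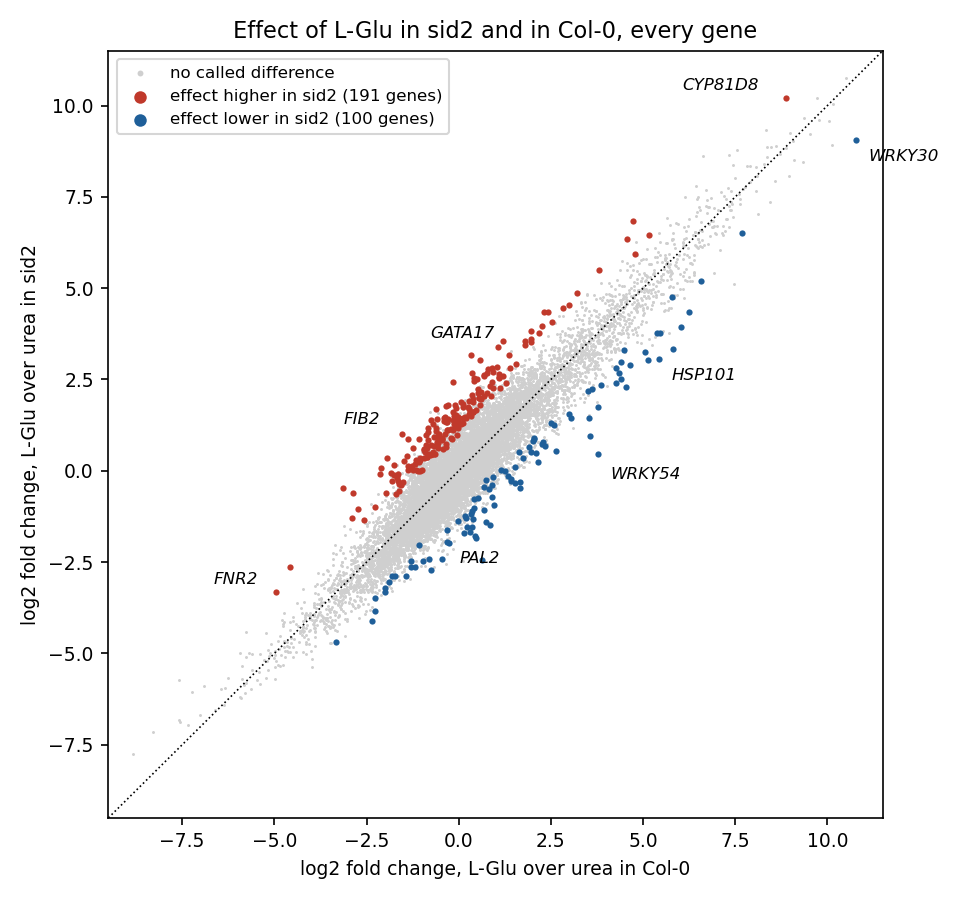
Log2 fold change of L-Glu over urea in Col-0 (x axis) and in sid2 (y axis) for 14897 genes, with the 291 genes whose effects were called as different in colour and a dotted line where both effects are equal. The coloured genes lie along both sides of the line over its whole length, 191 above and 100 below, and WRKY54 lies at 3.77 and 0.46.

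Beyond the lists, the genes with the largest differences were GATA17, a relative of the greening GATA factors, and AT3G22620, annotated as a lipid-transfer protein. GATA17 went from 32.3, 25.3 and 21.2 to 223, 305 and 265 in sid2 and from 22.6, 50.7 and 33.8 to 53.7, 28.8 and 55.0 in Col-0, a difference of 2.83 (95% interval 1.97 to 3.69, adjusted p = 0.00685). AT3G22620 went from 75.5, 76.2 and 89.7 to 13.4, 12.6 and 9.82 in sid2 and from 34.1, 58.4 and 50.4 to 50.4, 158 and 51.6 in Col-0, a difference of -3.09 (-4.10 to -2.09, adjusted p = 0.00745). The uncharacterized AT3G28160 changed by 0.34 in sid2 and fell by 1.94 in Col-0, a difference of 2.29 (adjusted p = 0.00685). The calls of these 3 genes held without each library.

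Further list and family members had a called difference. WRKY30 rose by 9.05 in sid2 and by 10.77 in Col-0, where its L-Glu values of 13958, 10663 and 14268 lay above the 4112, 3560 and 4061 of sid2, a difference of -1.72 (adjusted p = 0.0245). WRKY18, a repressor of defence genes, rose by 3.43 and 1.79, a difference of 1.64 (0.0245). CYP81D8 rose by 10.20 and 8.88, a difference of 1.32 (0.0328). Its urea values were 8.41, 8.95 and 10.5 in sid2 and 30.5, 31.3 and 41.0 in Col-0, and its L-Glu means were 15104 and 18204. The calcium pump ACA12 differed by 1.55 (0.0216), CML41 by 2.36 (0.0391), MKK4 by 1.43 (0.0393), FOX1 by 1.28 (0.0387), SAG13 by 1.77 (0.0357) and the aspartate kinase AK1 by 1.33 (0.0454). The auxin genes IAA7 and IAA2 differed by 2.24 (0.0184) and 1.71 (0.0215) and ARF19 by -1.20 (0.0438). LOX3 differed by -1.03 (0.0393), AMT1;2 by -1.36 (0.0414) and the amino acid exporter SIAR1 by -1.24 (0.0479). Every call of these 15 genes ended without sid2 L-Glu library 2 (adjusted p of 0.079 to 0.154), except that AMT1;2 and LOX3 reached their highest p, 0.115 and 0.117, without Col-0 L-Glu library 2 and sid2 urea library 3. All but that of WRKY30 also ended without Col-0 L-Glu library 2, and each ended without at least 3 of the 12 libraries.

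**Figure D4:**
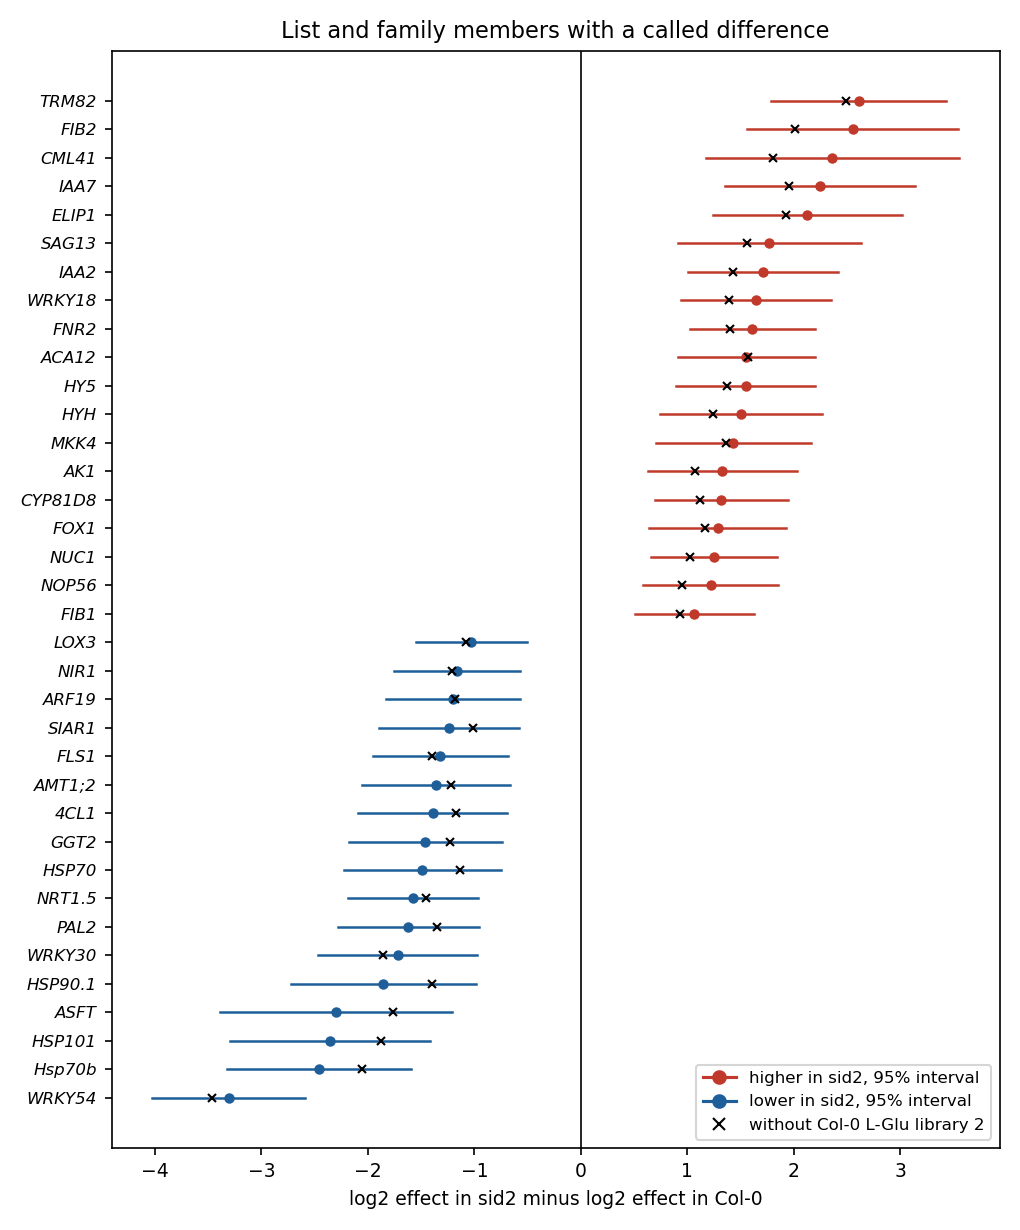
Difference between the effect of L-Glu in sid2 and in Col-0 (x axis, log2 scale) for the 36 list and family members with a called difference, with points for the estimate, lines for its 95% interval and crosses for the estimate without Col-0 L-Glu library 2. The estimates run from -3.31 for WRKY54 to 2.61 for TRM82, and the crosses lie on the same side of 0 as the points for all 36.

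Motifs were counted in the 250 bases before the start of 14650 genes, on either strand, with 1 match enough. The W-box core (TTGAC) was in 45.7% of all promoters, in 57.2% of the 1592 promoters of genes that rose by at least 2 on the log2 scale in sid2 and in 38.2% of the 1132 of genes that fell as far. The mitochondrial dysfunction motif was in 0.799% of all, 2.01% of the strongly raised and 0.707% of the strongly lowered. The heat shock element (GAANNTTC) was in 9.47%, 14.4% and 7.69%, and the TGA element (TGACG, which can overlap the W-box core) in 19.8%, 22.0% and 18.4%. The I-box was in 12.6%, 12.9% and 14.0%, and the G-box in 7.56%, 7.79% and 8.30%. The median GC content was 31.2%, 30.8% and 31.6% in the same order. These are shares of letters in a window, with no test, and say nothing of which factor was bound.

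**Figure D5:**
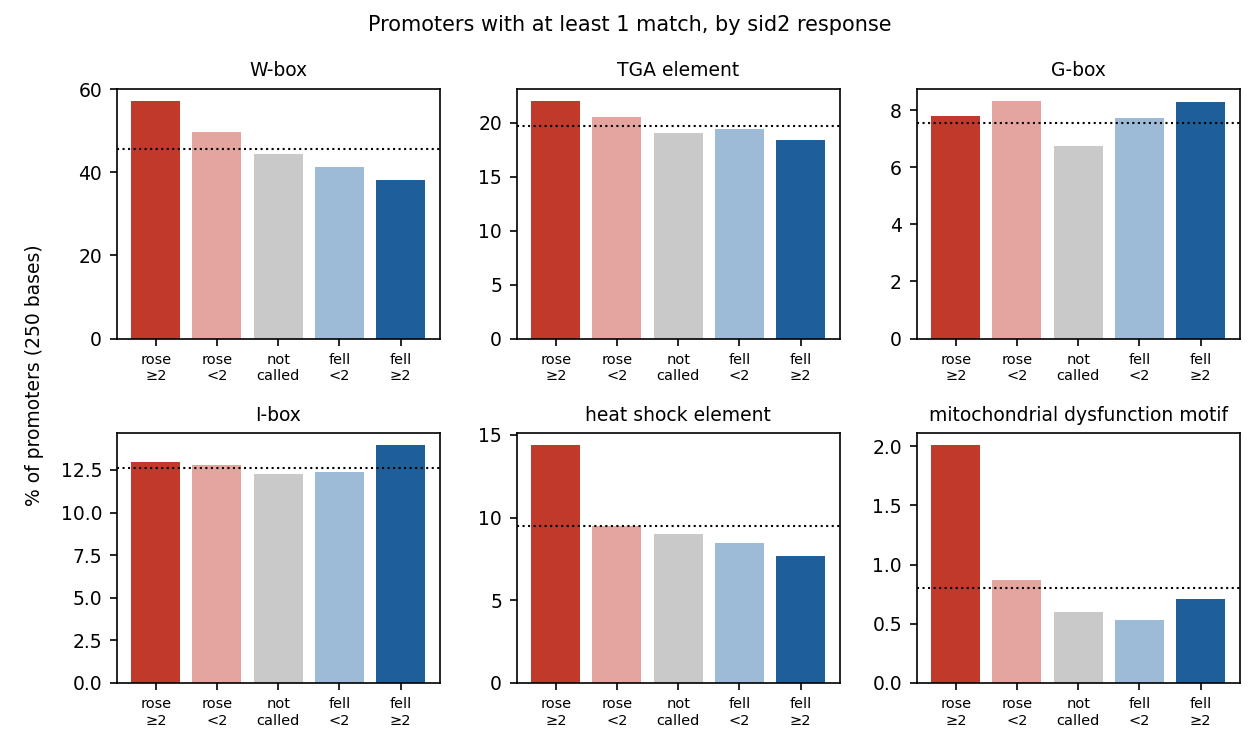
Share of promoters (y axis, percent) with at least 1 match to each of 6 motifs, for genes grouped by their change in sid2 (x axis, called rise or fall of at least or under 2 on the log2 scale, or not called), with a dotted line at the share among all promoters. The W-box share steps from 57.2% to 38.2% across the groups, and the heat shock element and mitochondrial dysfunction motif are highest in the strongest rises.

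Of 17 root markers 8 were measured, of which 1 rose, MYB36 (0.59, adjusted p = 0.0417, or 0.0591 with the replicate block), and 3 fell, SHR and SCR (each fell by 0.99) and the suberin gene ASFT (fell by 1.84). Of 16 shoot markers 8 were measured, 6 of which fell, by 0.90 to 2.73, and KCS1 rose by 3.34. Falls made up 37.5% of the measured root markers, close to the 32.4% of all genes, and 75% of the measured shoot markers. Rises made up 12.5% of each, beside 32.0% of all genes. None of the 8 seed storage and embryo genes was in the table. ASFT differed from Col-0 by -2.30 (95% interval -3.39 to -1.21, adjusted p = 0.0328), a call that ended without sid2 L-Glu library 2 (0.101), Col-0 library 2 of either treatment, sid2 L-Glu library 3 or any sid2 urea library. Among genes often used as references ACT2, ACT7, ACT8, GAPC2 and SAND fell by 1.12 to 1.61, and GAPC1 (0.19), PP2AA3 (0.09), UBC21 (-0.26) and TIP41 (-0.28) were not called. What part a change in the share of organs had in the falls of shoot and photosynthesis genes was not tested.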

How the data were processed

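RNA-seq libraries of whole seedlings were compared, 3 in each of 4 groups. The deposited values are normalized signal per gene for 14897 genes. How the authors normalized them is not given in the sources used here, and neither is the read depth. The submitters' processing notes name TopHat, TopHat2 2.1.0, HTSeq 0.6.0 and edgeR 3.22.3 with the build TAIR10, and do not say which did what. Whole reads could not be recovered, so no count test was run. Signal was divided by 1 constant for all libraries, 3.49211, chosen from the mean library total, and log2(scaled value + 1) was fitted with limma 3.58.1 in R 4.3.3, with the prior variance following intensity, 4 group means, 12 libraries and 8 residual degrees of freedom. A fold change is on that scale, which understates the change of low genes. Tests were two-sided, with Benjamini-Hochberg adjustment over all genes and a threshold of 0.05. The model was checked on simulated data in which, unlike in sid2, few genes were changed. Of changes of 1 on the log2 scale it recovered 40.3% in the sid2 comparison and 4.48% in the difference. At a change of 2 it recovered 97.0% and 59.1%. Most 2-fold differences between the genotypes were therefore missed in that check. Tables were made with Python 3.11.15, numpy 2.4.6 and pandas 2.3.3.

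The gene lists and members were chosen with earlier results of these data known. Genes named are a selection from the 15 highest and 15 lowest changes and the 10 highest and 10 lowest differences whose mean reached 5 scaled units, the 6 smallest p-values of each list, up to 6 that were not called or opposed, and members with a called difference, beside a few list members picked for their role after their values were seen. The 15 highest and 15 lowest changes were taken only from called genes whose sid2 groups did not overlap. Gene names and promoters came from RefSeq TAIR10.1, which held 14819 of the 14897 identifiers. Whether counting used strand is not stated, so antisense partners cannot be told apart. In sid2 the deviations of same-numbered libraries correlated at 0.116, 0.287 and 0.204, so replicate numbers were taken to pair the libraries there. In Col-0 they correlated at 0.086, 0.026 and 0.062, under the 0.1 required. The main fit used no pairing in either genotype. The replicate block paired same-numbered libraries within both genotypes. Its p-values for the difference therefore also pair Col-0, where the requirement was not met. Alternatives were other pseudocounts, filters and scalings, the sid2 libraries alone, a replicate block, no intensity trend and leaving out each library.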

Additional observations from a re-analysis of the deposited data

Results flagged for a closer look

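The genes below were picked out because the test of the difference between the L-Glu effects in sid2 and Col-0 was past its threshold. Values are sid2 minus Col-0 on the log2 scale. Those higher in sid2 were GATA17 (2.83), TRM82 (2.61), FIB2 (2.55), CML41 (2.36), AT3G28160 (2.29), IAA7 (2.24), ELIP1 (2.13), SAG13 (1.77), IAA2 (1.71), WRKY18 (1.64), FNR2 (1.61), ACA12 (1.55), HY5 (1.55), HYH (1.50), MKK4 (1.43), AK1 (1.33), CYP81D8 (1.32), FOX1 (1.28), NUC1 (1.25), NOP56 (1.22) and FIB1 (1.07). Those lower in sid2 were WRKY54 (-3.31), AT3G22620 (-3.09), Hsp70b (-2.46), HSP101 (-2.35), ASFT (-2.30), HSP90.1 (-1.86), WRKY30 (-1.72), PAL2 (-1.62), NRT1.5 (-1.58), HSP70 (-1.49), GGT2 (-1.46), 4CL1 (-1.39), AMT1;2 (-1.36), FLS1 (-1.32), SIAR1 (-1.24), ARF19 (-1.20), NIR1 (-1.16) and LOX3 (-1.03). The calls of GATA17, TRM82, AT3G28160, WRKY54 and AT3G22620 held without each library in turn, and those of the other 34 ended without at least 1 library.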

How the results depend on the processing

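Counts of genes called in sid2 stayed within 1.5 times the reported ones under every alternative run, between 8812 (without sid2 L-Glu library 2) and 10309 (each library scaled to the same total). The count of called differences moved from 291 to 453 with a pseudocount of 5, to 153 after quantile normalization, to 143 without the intensity trend and to 498 with the replicate block, and ran from 9 to 367 when single libraries were left out. With the block 6 of the list members and named genes lost their call in sid2 and 11 gained one, and for the difference none lost it and 13 gained one. Those named in the text carry the blocked value, except IAA7, whose change in sid2 of -0.61 was not called and reached an adjusted p of 0.0297 with the block, and IGMT2 and MKK9, whose differences from Col-0 reached 0.0371 and 0.0317. The block changed no other call of a gene named in the text. Of 259 genes named in the text, 22 changed their call in sid2 under an alternative other than leaving out a library and 15 when a library was left out, and none changed sign while called. With each library scaled to the same total the rises of FIB1, FIB2, HYH, GSA1, NAC017, TGA2, UGT71C3, MYB36, AK1 and SIAR1 were not called, and the cause was not tested. Of 39 called differences, 21 lost their call under such an alternative and 34 without some library. The unknown depth leaves the counting error of low genes unstated.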
